A study of Mus musculus with 8 samples.

Results

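The genes described here are 10 genes of MHC class II antigen presentation: Cd74, the class II chain genes H2-Aa, H2-Ab1 and H2-Eb1, the class II transactivator gene Ciita, and the accessory genes H2-DMa, H2-DMb1, H2-DMb2, H2-Oa and H2-Ob. They were taken by gene name from a deposited table of 46983 genes, each name matched 1 row, and all 10 were among the 22546 genes tested. The set was chosen from the difference between the libraries named WT and named Qk-KO, in which class II genes had stood out. Differences by sample name therefore describe these libraries. Their intervals and calls are printed to show the spread and are not read as a test of the members. RNA was sequenced from microglia of the corpus callosum, the main white matter tract of the forebrain, in 8 libraries of mice on an FvB/C57BL6 hybrid background. All mice carried Cx3cr1-CreER, a tamoxifen-inducible recombinase expressed under the promoter of a receptor of microglia and other myeloid cells. Per the labels, Cx3cr1-CreER;QKLoxP/LoxP mice are the Qk-KO and Cx3cr1-CreER;QKLoxP/+ mice the WT, so that the WT also carry the recombinase and a single floxed allele of Qk, which encodes the RNA-binding protein quaking. Tamoxifen was given at 8 weeks of age, before 6 weeks on food with 0.2% cuprizone, which damages oligodendrocytes and strips myelin by binding copper. The labels do not say whether each library came from a separate mouse, so the spread between libraries may be technical.

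The labels name 4 libraries WT and 4 Qk-KO, each numbered 1 to 4. For 4 of the 8 the genotype field contradicts the name: named WT 2 and 3 are Qk-KO in that field, and named Qk-KO 1 and 3 are WT. Each combination of name and field thus holds 2 libraries, the contrast by field is independent of the contrast by name, and values are given by name or by field rather than by genotype. On the regularized log2 scale, Qk itself spanned 15.37 to 15.50 over named WT libraries, inside the span of 15.29 to 15.69 over named Qk-KO libraries. Rough totals of reads on genes were 59.7 to 69.8 M for the named WT libraries against 43.9 to 58.5 M for named Qk-KO, with the smallest in named Qk-KO 3. The 10 microglial markers summed to 17400 to 19090 CPM in named WT libraries, where CPM is a depth-scaled read count. In named Qk-KO libraries the sum was lower, 14150 to 16470 CPM. The authors' deposited table called 4 of these markers lower (Sall1, Gpr34, Cx3cr1 and Csf1r), and none of the 10 was at 0.

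MHC class II molecules are surface proteins that show peptides from endosomes to CD4 T cells. Each is a pair of an alpha and a beta chain: H2-Aa and H2-Ab1 encode the pair of the A molecule, and H2-Eb1 the beta chain of the E molecule. The product of Cd74, the invariant chain, holds new class II molecules and leads them to endosomes. There the DM molecule, encoded by H2-DMa and the H2-DMb genes, exchanges the remnant of the invariant chain for peptides, and the DO molecule, encoded by H2-Oa and H2-Ob, restrains DM. CIITA does not bind DNA itself. It docks onto RFX, CREB and NF-Y proteins that sit on the X and Y boxes of class II promoters, and interferon gamma is its best known inducer. Resting microglia carry little class II, which rises in inflamed and demyelinated white matter.

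The X and Y boxes are shown for 3 members that share the letters in capitals, which were chosen after the sequences were seen, and whose RNA levels differed in their pattern between the libraries. H2-Aa and H2-Eb1 were far lower in named Qk-KO, and H2-Ob was not. The sequences are 60-base stretches before the RefSeq start, 5′ to 3′ on the strand of the gene (GRCm38.p6). Capitals mark GCAAC, a core of the X box, and TGATTGG, the Y box with its inverted CCAAT. They lie at chr17:34287862-34287921 (minus strand) for H2-Aa, chr17:34305758-34305817 (plus strand) for H2-Eb1 and chr17:34238798-34238857 (plus strand) for H2-Ob, outside every annotated exon.
H2-Aa: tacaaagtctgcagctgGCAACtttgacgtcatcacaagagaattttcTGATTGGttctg
H2-Eb1: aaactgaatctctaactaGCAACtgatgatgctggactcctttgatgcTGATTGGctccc
H2-Ob: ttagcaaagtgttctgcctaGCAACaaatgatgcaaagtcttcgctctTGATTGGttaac
From the first base of GCAAC to the first base of TGATTGG were 31 bases in H2-Aa, 30 in H2-Eb1 and 28 in H2-Ob. The base before TGATTGG is part of the longer motif CTGATTGG, which H2-Aa and H2-Eb1 hold and H2-Ob does not. H2-Oa also holds CTGATTGG, with GCAAC 31 bases before TGATTGG, and is not printed because its stretch reaches an annotated exon.

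RefSeq promoter sequences matched 7 of the 10 members, with 8 promoters. Those of Cd74, H2-Ab1 and Ciita were not matched. In the 250 bases upstream, searched on both strands, CCAAT stood in 7 of 8 member promoters and in 33.8% of 32851 RefSeq promoters. CTGATTGG, which includes an inverted CCAAT, stood in 3 of 8 and in 3.83% of all promoters. GCAACAG stood in 0 of 8 and in 4.46% of all promoters, and TGACG in 1 of 8 and 17.8%. Chosen after the sequences were seen, TGATTGG stood in 6 of 8 and in 7.23% of all promoters. GNAAC placed 10 to 40 bases before TGATTGG on the same strand stood in 5 of 8, those of H2-Aa, H2-Eb1, H2-Ob, H2-Oa and H2-DMb1, and in 0.731% of all promoters. A match is a match of letters only, and says nothing of binding in these cells.

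Levels per length placed Cd74 far above the others in both named groups. In named WT libraries Cd74 stood at 716 ± 124 CPM per kilobase of exon (SD, n = 4), H2-Ab1 at 134 ± 23.0, H2-Eb1 at 109 ± 23.5 and H2-Aa at 81.9 ± 7.56. H2-DMb1 followed at 52.9 ± 3.13, H2-DMa at 31.2 ± 2.37, H2-Oa at 18.3 ± 1.20, H2-DMb2 at 8.76 ± 0.133, H2-Ob at 5.70 ± 0.284 and Ciita at 1.36 ± 0.168. H2-Ab1 and H2-Eb1 overlapped between the named WT libraries. No other neighbours in this order did, although H2-Eb1 and H2-Aa were separated only by 90.4 against 89.4. In named Qk-KO libraries the order was kept for 8 of the 10 ranks, and H2-DMb1 (47.6 ± 3.68) stood above H2-Aa (38.8 ± 13.3). There, H2-Ab1, H2-Eb1, H2-DMb1, H2-Aa and H2-DMa overlapped from each to the next, with H2-Aa at 21.3 to 52.5 and H2-DMa at 20.8 to 26.7. Levels per length depend on exon lengths from the GENCODE M21 annotation, joined over all transcripts, which run from 1407 bases for H2-Oa to 9535 for Ciita.

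The 5 genes Cd74, H2-Aa, H2-Ab1, H2-Eb1 and Ciita were about 1.83 to 2.23-fold lower in the libraries named Qk-KO. The DM and DO genes differed by 1.03 to 1.29-fold. All values that follow are regularized log2 values as deposited, which are shrunken towards the mean of the gene where reads are few. In these bulk libraries fewer cells that carry class II and less RNA per cell cannot be told apart.

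Cd74 (chromosome 18, 60803848 to 60812652, GRCm38) had values of 15.84, 16.38, 15.94 and 16.01 in named WT libraries 1 to 4. Its values were 15.48, 15.17, 14.84 and 15.20 for the named Qk-KO libraries 1 to 4, the order used throughout. Every named Qk-KO library lay below every named WT library, by at least 0.36. The means were 16.04 ± 0.24 and 15.17 ± 0.26 (SD, n = 4 each), which differed by -0.87 ± 0.15 (SE; 95% interval -1.21 to -0.53). This interval and those below come from limma. Mir5107, a microRNA gene inside Cd74 on the same strand, differed by -0.91, and its reads cannot be told apart from those of Cd74.

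H2-Aa (chromosome 17, 34282744 to 34287823) had the widest gap between the named groups. It had values of 14.06, 14.23, 14.19 and 13.93 in named WT and 13.47, 13.23, 12.17 and 12.95 in named Qk-KO. The lowest named WT library stood 0.46 above the highest named Qk-KO library. The groups differed by -1.15 ± 0.25 (SE; 95% interval -1.74 to -0.56), or 2.22-fold.

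H2-Ab1 (chromosome 17, 34257689 to 34269419), the beta chain that pairs with H2-Aa, had values of 14.02, 14.57, 14.14 and 14.24 in named WT and 13.78, 13.36, 12.62 and 12.99 in named Qk-KO. The groups did not overlap, and the difference was -1.05 ± 0.24 (SE; 95% interval -1.61 to -0.50). H2-Eb1 (chromosome 17, 34305867 to 34316674) had values of 13.28, 13.95, 13.41 and 13.49 in named WT and 13.07, 12.49, 11.74 and 12.22 in named Qk-KO. Its groups were separated by 0.22, the narrowest gap of the 5 genes, and differed by -1.16 ± 0.28 (SE; 95% interval -1.79 to -0.52). The E molecule needs an alpha chain for which C57BL/6 mice carry only a defective gene, H2-Ea-ps, and this gene is listed at 0 in every library. These mice were FvB/C57BL6 hybrids, and how reads from FvB alleles of the class II genes were counted is not known here. Gm20513, a low non-coding gene at 0.226 CPM on the strand opposite to H2-Eb1 and overlapping it, differed by -0.53, and without stated strand the reads of the pair cannot be told apart.

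Ciita (chromosome 16, 10480059 to 10528418) had values of 9.59, 9.72, 9.33 and 9.40 in named WT and 8.93, 8.62, 7.77 and 8.18 in named Qk-KO. The groups were 0.40 apart and differed by -1.14 ± 0.23 (SE; 95% interval -1.65 to -0.62), or 2.20-fold. Ciita was the lowest member in reads, at 12.9 ± 1.60 CPM in named WT and 6.11 ± 2.07 CPM in named Qk-KO (SD, n = 4 each). Within a library, Ciita minus H2-Ab1 on the log2 scale was -4.85 to -4.43 for named WT and -4.85 to -4.75 for named Qk-KO, with overlapping ranges. Dexi, a gene on the opposite strand that overlaps Ciita, stood at 7.92 CPM and differed by -0.06.

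**Figure D1:**
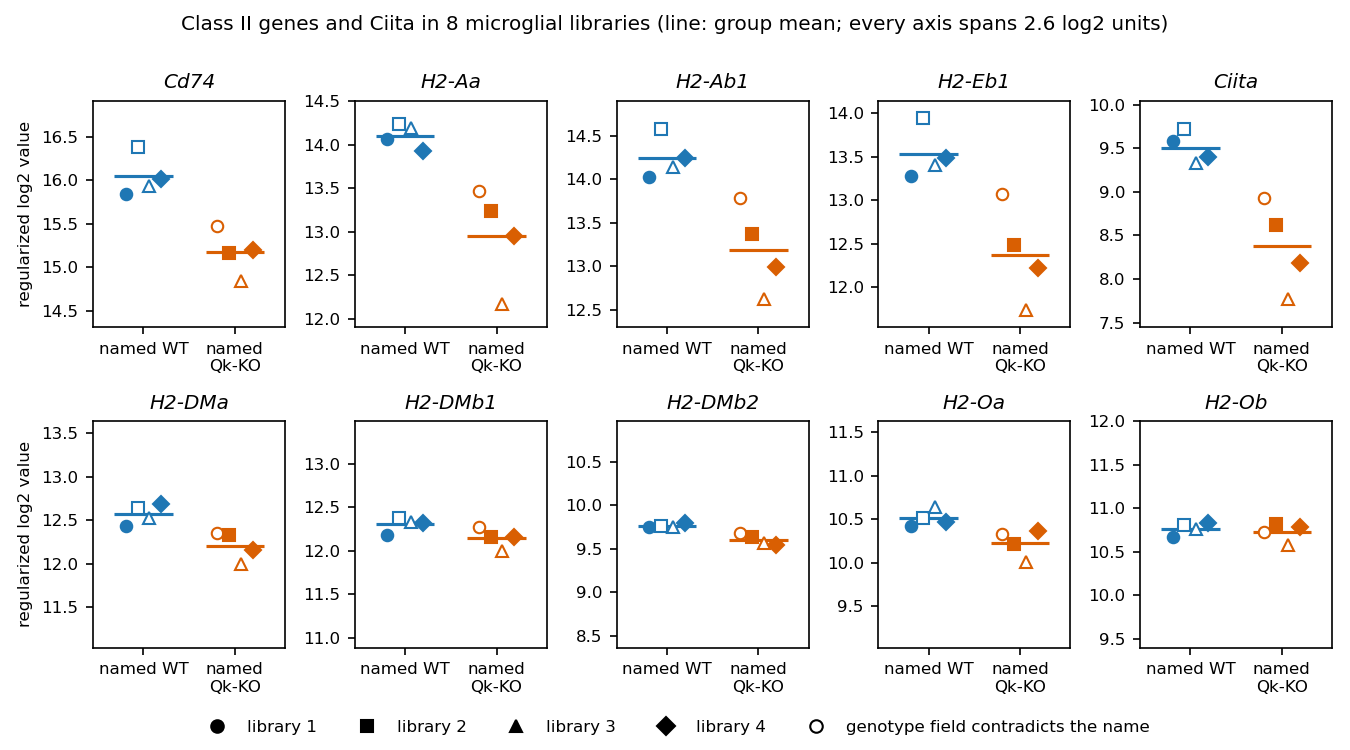
Regularized log2 values (vertical axis) of the 10 members in the 8 libraries; marker shape gives the library number, open markers the 4 libraries whose genotype field contradicts the name, and lines the group means. For the 5 genes of the upper row and for H2-DMa, H2-DMb2 and H2-Oa every named Qk-KO library lies below every named WT library; H2-DMb1 and H2-Ob overlap.

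The DM genes differed less. H2-DMa (chromosome 17, 34119541 to 34139101) had values of 12.44, 12.64, 12.53 and 12.68 in named WT and 12.35, 12.33, 11.99 and 12.16 in named Qk-KO. Its groups were 0.09 apart and differed by -0.36 ± 0.09 (SE; 95% interval -0.57 to -0.16). Brd2, a chromatin reader gene at 350 CPM on the opposite strand, overlaps H2-DMa and differed by -0.06. Where strand was not used, part of the H2-DMa value may come from Brd2 reads.

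H2-DMb1 (chromosome 17, 34153072 to 34160230) lay at 12.17 to 12.37 over named WT libraries and at 11.997 to 12.27 over named Qk-KO libraries, and the groups overlapped. It differed by -0.15 ± 0.07 (SE; 95% interval -0.31 to 0.0036). H2-DMb2 (chromosome 17, 34143307 to 34151555) lay at 9.75 to 9.79 and at 9.54 to 9.69, without overlap, and differed by -0.16 ± 0.06 (SE; 95% interval -0.30 to -0.02). With each library centred on its median, H2-DMb1 differed by -0.08 and H2-DMb2 by -0.08, and both overlapped. These neighbours are close copies: 21.2% of the 50-base stretches of H2-DMb2 transcripts occur unchanged in those of H2-DMb1. Their reads may have been split between them, and their values are uncertain to that extent. Within a library, H2-DMa exceeded H2-DMb1 by 0.20 to 0.36 for named WT, against -0.0036 to 0.17 for named Qk-KO, so that the alpha gene was lower relative to the beta gene in every named Qk-KO library.

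H2-Oa (chromosome 17, 34092340 to 34095234) had values of 10.43, 10.51, 10.64 and 10.47 in named WT and 10.33, 10.21, 10.01 and 10.37 in named Qk-KO. The groups were 0.06 apart and differed by -0.28 ± 0.09 (SE; 95% interval -0.48 to -0.08). BC051537, a low antisense gene at 0.251 CPM that overlaps H2-Oa, differed by -0.35. Its partner H2-Ob (chromosome 17, 34238903 to 34254414) lay at 10.66 to 10.83 over named WT libraries and at 10.58 to 10.82 over named Qk-KO libraries. Those ranges overlapped widely, and the means differed by -0.04 ± 0.07 (SE; 95% interval -0.19 to 0.11), or 0.04 after that centring. H2-Oa minus H2-Ob was -0.36 to -0.12 for named WT and lower, -0.60 to -0.41, for named Qk-KO. H2-Ob shares only the letters in capitals with H2-Aa and H2-Eb1 above. It lacks CTGATTGG, and its spacing is 28 bases against 31 and 30. Whether any of these letters bear on the levels was not tested.

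In all, 8 of the 10 members had no overlap between the named groups, all lower in named Qk-KO, where 2.70% of the 22546 genes tested had none in that direction. With each library centred on its median, only Cd74, H2-Aa, H2-Ab1, H2-Eb1 and Ciita had none, where 0.962% of the genes tested had none in that direction. The authors' deposited table called 5 members lower at an adjusted p under 0.05 (Cd74, H2-Aa, H2-Ab1, Ciita and H2-DMa), where it called 0.671% of 14150 genes lower. H2-DMa stood just inside that threshold and H2-Eb1 just outside it, at adjusted p = 0.0399 and 0.0514 in the authors' deposited table. Limma on the deposited log2 values called 0 of the 10 by name at an adjusted p under 0.05 and 0.00444% of all genes, with 8 members at an unadjusted p under 0.05, where 8.26% of all genes were. Since the members were chosen on this contrast, nothing is read from these counts. The median difference over the members was -0.62, and over all genes tested it was -0.0044.

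The same libraries stood at the ends for most members. Named Qk-KO 3 was the lowest of the 8 libraries for 9 members and named Qk-KO 4 for H2-DMb2. Named WT 2 was the highest for 6 members, namely Cd74, the 3 chains, Ciita and H2-DMb1. Among the named Qk-KO libraries the order from high to low was 1, 2, 4 and 3 for H2-Aa, H2-Ab1, H2-Eb1, Ciita and H2-DMa. The named Qk-KO libraries spread more widely than named WT: Ciita spanned 1.16 against 0.39, H2-Aa 1.301 against 0.30, H2-Ab1 1.16 against 0.55 and H2-Eb1 1.33 against 0.67. Without named Qk-KO 3, the differences by name were -0.89 for H2-Aa, -0.87 for H2-Ab1, -0.94 for H2-Eb1 and -0.93 for Ciita. Named Qk-KO 3 also had the smallest read total, and the part of depth in its values was not tested.

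After the mean of each named group was subtracted, most members still moved together. Over the 8 libraries, Pearson's r with the mean of Cd74, H2-Aa, H2-Ab1 and H2-Eb1 (leaving out the gene itself) was 0.982 for H2-Eb1, 0.976 for H2-Ab1, 0.931 for Ciita, 0.898 for Cd74, 0.896 for H2-DMb1, 0.860 for H2-Aa and 0.859 for H2-DMa. It was 0.733 for H2-DMb2, 0.648 for H2-Ob and 0.614 for H2-Oa. These are descriptions over libraries that share a depth and a scaling across genes. Outside the members, among genes of at least 1 CPM, the pattern most like that mean was Mmgt2, a membrane magnesium transporter gene (r = 0.967), then Mmp12, a macrophage elastase (0.964), and Tfg (0.960). The lowest of the first 10 such genes, Ube2q2, still reached 0.940, above Ciita. The share of all genes with r as high as the members was not counted. Without subtraction, Mmp12 (0.974), Shkbp1 (0.973) and Borcs8 (0.971) were the most alike. Mmp12, Tfg and Shkbp1 were the 3 genes among the first 10 in both ways.

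By the genotype field, a contrast that did not choose the members, the class II genes did not separate. Cd74 was 15.54 ± 0.52 in field WT and 15.67 ± 0.59 in field Qk-KO (SD, n = 4 each), a difference of 0.13 ± 0.34 (SE; limma adjusted p = 0.9995). H2-Aa differed by 0.24 ± 0.49, H2-Ab1 by 0.10 ± 0.45, H2-Eb1 by 0.12 ± 0.51 and Ciita by 0.04 ± 0.47 (SE; limma adjusted p = 0.9995 for each). The intervals were wide: for H2-Aa it ran from -0.90 to 1.38 and for Ciita from -1.03 to 1.11, so these data do not show that the field groups are alike. This fit leaves the name out, so the difference by name adds to its spread. With name and field both fitted, the estimates were unchanged and limma called 0 genes by field. The DM and DO genes differed by -0.03 to 0.13. Limma called 0 of the 10 members by field (0 at an unadjusted p under 0.05) and 0% of the genes tested, where 602 genes (2.67%) had an unadjusted p under 0.05. The median over the members was 0.10 and that over all genes 0.0021.

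**Figure D2:**
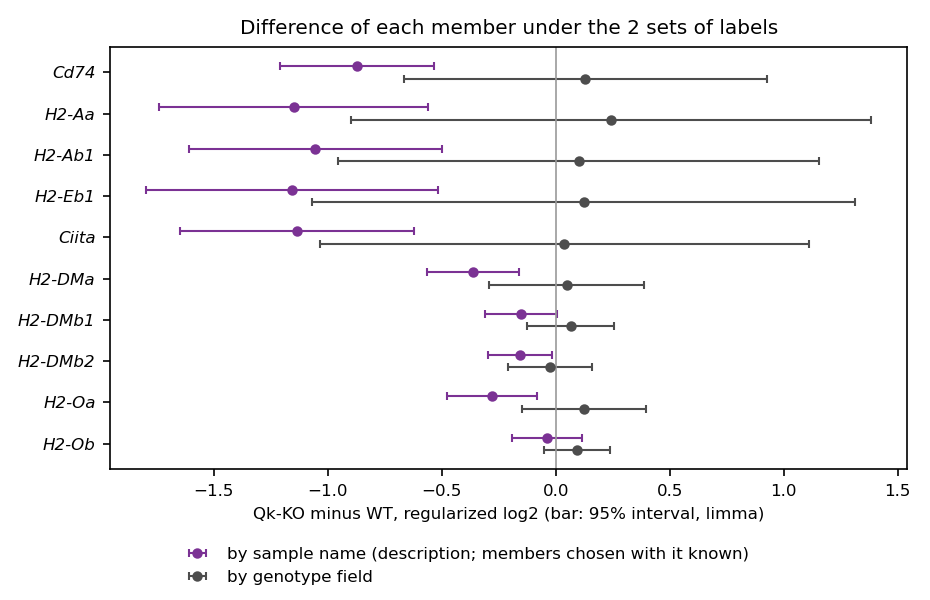
Difference Qk-KO minus WT on the regularized log2 scale (horizontal axis) for each member, by sample name and by genotype field; points are limma estimates and bars 95% intervals, from 8 libraries. By name the 5 upper genes lie between -1.16 and -0.87; by genotype field all 10 intervals include 0.

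The difference by name was present within the libraries whose labels agree and within those whose labels contradict each other. The members were chosen on this difference over these same libraries, so its presence in both parts is a description and not a replication. In the 4 libraries with agreeing labels (named WT 1 and 4, named Qk-KO 2 and 4) the differences were -0.74 for Cd74, -0.91 for H2-Aa, -0.95 for H2-Ab1, -1.03 for H2-Eb1 and -1.10 for Ciita. In the 4 with contradicting labels (named WT 2 and 3, named Qk-KO 1 and 3) they were -1.001, -1.39, -1.16, -1.28 and -1.17 in the same order. H2-Ob was the exception in sign, at 0.05 and -0.13. The interaction of name and field, which tests the change between these differences, was called by limma for 0 of the 10 members (smallest adjusted p = 0.770), against 0.0222% of the genes tested. At an unadjusted p under 0.05 limma had 0 members and 11.2% of the genes tested. With 2 libraries in each combination its intervals were wide, from -1.93 to 1.26 for H2-Eb1.

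Genes that act beside CIITA on class II promoters differed little by name. Of a list of 20 transcription regulators tested, the authors' deposited table called 0 lower and 1 higher, where it called 0.551% of all genes higher. The called gene was Creb1, whose product binds the X box region, at a log2 fold change of 0.20 (SE 0.05, adjusted p = 0.0310 in the authors' deposited table). It lay at 11.77 to 11.83 over named WT libraries and at 11.95 to 12.07 over named Qk-KO libraries, without overlap, and limma did not call it (adjusted p = 0.388). The share of all genes tested that were higher without overlap was not counted. Such a separation, here and for Cd82, Cd80 and Icosl below, therefore has no background to be read against. Of the genes not called, Nfya, an NF-Y subunit gene, differed by -0.27 ± 0.20 (SE), and Kat2b, a histone acetyltransferase gene that works with CIITA, by 0.21 ± 0.07, both more than Creb1 in size. Prdm1, which encodes a repressor of Ciita, and Rfxank, an RFX subunit gene, differed by 0.13 and -0.13. The other subunits were looked up after these values were seen: Rfx5 differed by 0.0059, Rfxap by -0.03, Nfyb by 0.03 and Nfyc by 0.02. None of these genes but Creb1 was called, and the median of the list was -0.01.

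Interferon gamma signalling genes had none called in the authors' deposited table (0 of 12 tested, 11 of them with an adjusted p) and none by limma. Ptpn2, a phosphatase that dampens the pathway, had the largest difference, 0.17 ± 0.10 (SE). Ifng, the cytokine gene, was at 0.280 CPM and differed by -0.17 ± 0.20. The kinase gene Jak2 differed by 0.11, Usp18, a feedback inhibitor of interferon signalling, by -0.09, and Ifngr2, a receptor chain gene, by -0.09. Of 20 genes induced by interferon gamma, other than Ciita, the authors' deposited table called 2, both lower. Cxcl9, a chemokine that draws T cells, had values of 8.85, 8.998, 9.003 and 8.96 in named WT and 8.12, 8.24, 7.75 and 8.25 in named Qk-KO. The groups did not overlap, and the authors' deposited table gave a log2 fold change of -0.89 (SE 0.14, adjusted p = 3.36e-07). Gbp2, a guanylate-binding protein of cell defence, was at -0.54 there (SE 0.12, adjusted p = 0.00123), also without overlap. The GTPase genes Tgtp1, Iigp1 and Gbp4 and the transcription factor gene Batf2 came next in limma, at -0.47, -0.39, -0.36 and -0.35, and were not called. Limma called no gene of the list, of which 17 had negative differences, with a median of -0.16.

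Genes of class II processing and turnover held 1 gene of 16 called lower in the authors' deposited table and none called higher. Ctss encodes cathepsin S, the protease that trims the invariant chain. It had values of 18.40, 18.36, 18.47 and 18.49 in named WT and 18.24, 18.23, 17.91 and 18.03 in named Qk-KO. The groups did not overlap, and the log2 fold change was -0.33 (SE 0.09, adjusted p = 0.0310) in the authors' deposited table. Cd83, whose product keeps class II from being degraded, differed by 0.22 ± 0.32 (SE), and the tetraspanin gene Cd82 by 0.18 ± 0.05, higher without overlap. The chaperone gene Canx differed by -0.17, the CD74 ligand gene Mif by 0.14 and the cathepsin gene Ctsl by -0.12. Limma called none of them, and the median of the list was 0.04.

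Among 11 genes of T cell costimulation and class II ligands, the authors' deposited table called Lag3 lower and none higher. Lag3 encodes an inhibitory receptor that binds class II. It had values of 14.29, 14.24, 14.38 and 14.31 in named WT and 13.99, 13.73, 13.46 and 13.42 in named Qk-KO. Its groups did not overlap, and its log2 fold change there was -0.64 (SE 0.13, adjusted p = 0.000366). Cd80 and Icosl, which encode ligands of costimulatory receptors on T cells, differed by 0.62 ± 0.21 and 0.22 ± 0.08 (SE) in limma, higher without overlap. They were not called, with adjusted p = 0.129 and 0.281 in the authors' deposited table. The ligand genes Tnfsf9, Pdcd1lg2 and Cd274 differed by 0.45 ± 1.01, -0.43 ± 0.25 and 0.18 ± 0.38. Limma called none of these 11 genes by name. Other class II genes were near or at 0: H2-Eb2 stood at 0.0556 CPM, and H2-Pa, like H2-Ea-ps, is listed at 0.

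**Figure D3:**
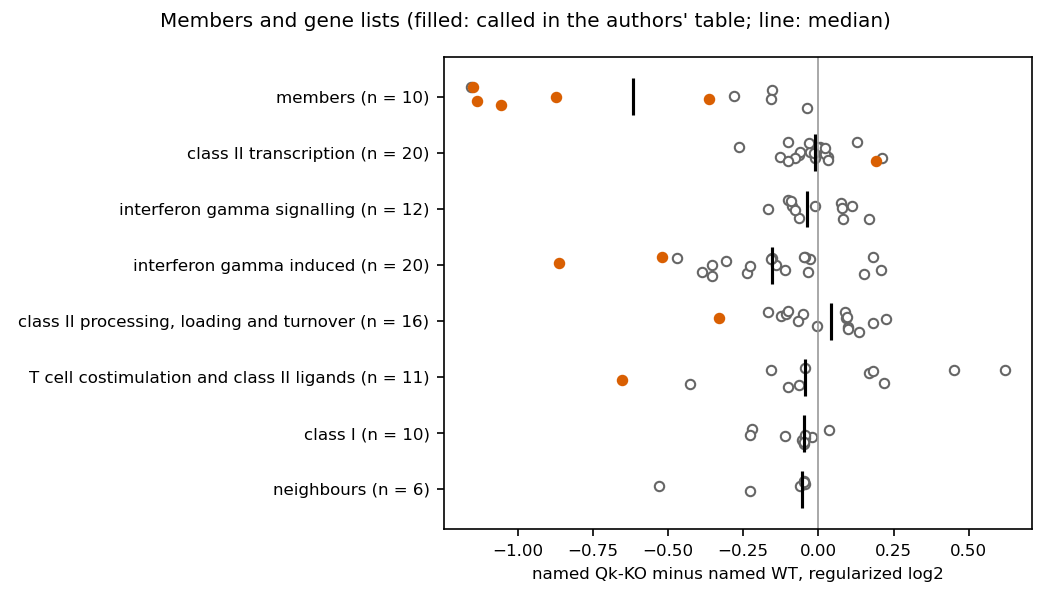
Named Qk-KO minus named WT on the regularized log2 scale (horizontal axis) for each tested gene of the members and of 7 lists; filled points were called in the authors' deposited table and vertical lines are medians. The members' median is -0.62, and the medians of the lists lie between -0.16 and 0.04; the members were chosen on this contrast.

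Between the class II members on chromosome 17 lie 9 other genes, of which 6 were tested. Limma called 0 of these, and 0 of the 5 with an adjusted p were called in the authors' deposited table. Gm20513, which overlaps H2-Eb1, differed by -0.53 ± 0.17 (SE), and the class I peptide transporter gene Tap1 by -0.23 ± 0.07, each lower without overlap between the named groups. Both differences exceeded those of H2-DMb1, H2-DMb2 and H2-Ob in size. Tap2, the partner of Tap1, differed by -0.05, the immunoproteasome genes Psmb8 and Psmb9 by -0.05 each, and Brd2 by -0.06. The 10 class I genes listed had 0 calls in the authors' deposited table, with a median of -0.05. H2-D1, a class I heavy chain gene, differed by -0.22 and did not overlap, Nlrc5, the class I transactivator gene, by -0.11, and B2m, the class I light chain gene, by -0.05.

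**Figure D4:**
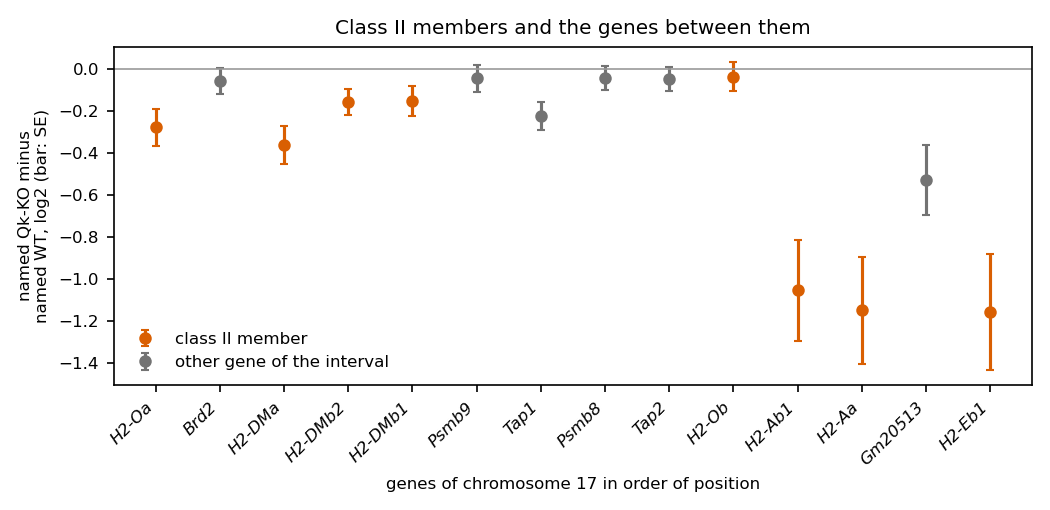
Named Qk-KO minus named WT on the regularized log2 scale (vertical axis, bars SE) for the 8 members of chromosome 17 and the 6 other tested genes between them, in order of position. H2-Ab1, H2-Aa and H2-Eb1 lie at or below -1.05; of the other genes Gm20513 lies at -0.53, Tap1 at -0.23, and Psmb8, Psmb9, Tap2 and Brd2 between -0.06 and -0.05.

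Other cells that carry class II were looked for by their markers. The 12 dendritic cell markers summed to 210 to 298 CPM over named WT libraries against 205 to 302 CPM over named Qk-KO libraries. Siglech, a gene that microglia also express, made up most of it at 236 CPM, while Flt3, Xcr1 and Clec9a stood at 0.734, 0.111 and 0.283 CPM. The sum of 8 border-associated macrophage markers was 116 to 190 CPM and 123 to 185 CPM, and that of 7 monocyte markers 539 to 685 CPM and 304 to 688 CPM. Fn1, which is not particular to monocytes, gave most of the monocyte sum at 563 CPM, while Ccr2, Chil3 and Ly6c2 stood at 9.48, 7.04 and 2.33 CPM. For 8 B cell markers the sum was 330 to 343 CPM over named WT libraries and lower, 262 to 328 CPM, over named Qk-KO libraries, without overlap. Ighm and Cd22 gave most of that sum, at 160 and 135 CPM, and Cd79a, Ms4a1 and Pax5 were at 0.212 to 0.326 CPM. The sum of 8 T and NK cell markers was 6.27 to 8.03 CPM and 4.83 to 8.47 CPM. Astrocyte markers summed to 202 to 532 CPM and 82.9 to 491 CPM, lowest in named Qk-KO 3, where class II was also lowest. Among the named WT libraries, though, the astrocyte sum was lowest in named WT 2, where most class II genes were highest. Neutrophil markers summed to 8.72 to 213 CPM and 18.4 to 54.7 CPM, highest in named WT 2, where most class II genes were also highest. Their sum was lowest in named WT 4, below every named Qk-KO library. Oligodendrocyte markers summed to 130 to 307 CPM and 124 to 261 CPM, and endothelial markers to 202 to 271 CPM and 225 to 238 CPM. Flt1 gave most of the endothelial sum, at 184 CPM, and differed by 0.01, while 5 of the 6 endothelial markers had negative differences, with a list median of -0.53. All 6 astrocyte markers had negative differences, with a median of -0.95. No marker of these lists was at 0. The authors' deposited table called Ms4a7, a border-associated macrophage marker, higher, and no other marker of these lists. Part of these markers had no adjusted p there. Ms4a7 differed by 0.79 in limma, while 7 of the 8 border-associated macrophage markers had negative differences, with a list median of -0.13. The part of the microglial, B cell, astrocyte, endothelial and neutrophil markers in the class II values was not tested.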

How the data were processed

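The single table deposited by the authors covers 8 libraries. Per the submitters' processing notes, build mm10 and the tools HISAT2, StringTie, DESeq2 and FastQC were used, with no versions or roles named. Strandedness and annotation release are not given in the sources used here. As deposited, the library columns hold log2 values; how they shrink low genes marks them as depth-scaled regularized log2 values, and 19497 genes without reads are listed at 0. Per the file headers, the authors also gave each gene's mean normalized signal and log2 fold change with SE. Per the file headers, the remaining columns are p-values, before and after adjustment, and the test statistic, a score. No pseudocount was added.

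Genes that reached a normalized value of 1 in 4 or more libraries were fitted with limma 3.58.1 in R 4.3.3 (intensity trend, robust), across all 22546 genes, with Benjamini-Hochberg adjustment and a threshold of 0.05. The fit was tested on simulated data. CPM was signal divided by 56.8. Read totals were estimated from what 1 read is worth in genes found in a single library, where values were whole within 1%; they are rough, since shrunken values were summed, and give no counts per gene. Gene positions and exon lengths come from GENCODE M21 (GRCm38), promoters from RefSeq. Members, lists and rules were chosen with earlier results of these data known. All 10 members were named, and up to 6 tested genes of each pathway list: those called in the authors' table or by limma, then those with the largest absolute difference. Some genes of the lists are not reported here. Same-numbered libraries were not treated as pairs, since nothing in the labels ties them.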

Additional observations from a re-analysis of the deposited data

How the results depend on the processing

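The members' median difference by sample name was -0.62 and stayed between -0.71 and -0.53 over all 18 alternatives run. Some alternatives could not move it, because they leave each member's estimate as it is. These were changes of the filter or of the trend and robust settings, the replicate block, and name and field fitted together. Cd74, H2-Aa, H2-Ab1, H2-Eb1, Ciita, H2-DMa, H2-DMb1, H2-DMb2 and H2-Oa were negative in each of the 17 limma alternatives; H2-Ob was positive in 3 of 17. The count of genes limma called by name was 1. It was 0 among genes of at least 1 CPM, 3 in the libraries whose labels agree, 9 in those whose labels contradict each other, and 0 (without named Qk-KO 3) to 7 (without named Qk-KO 4) with a single library left out. The authors' deposited table called 173. By genotype field the count was 0, and 0 to 1 with a library left out. The interaction called 5 genes, and 3 at 1 CPM, 10 with libraries centred on their median and 9 after quantile normalization. The causes were not tested. By field, single left-out libraries turned signs, and no member was called: Cd74 ranged from -0.11 to 0.30, H2-Aa from -0.17 to 0.48, H2-Ab1 from -0.25 to 0.36, H2-Eb1 from -0.26 to 0.39, Ciita from -0.35 to 0.30, H2-DMa from -0.0767 to 0.153 and H2-DMb2 from -0.0705 to 0.0183. Ciita was -0.00084 after quantile normalization. Centring turned the list medians by name positive for class II transcription (0.06), interferon gamma signalling (0.04), costimulation (0.03), class I (0.03) and the neighbours (0.02). The replicate block is balanced over the named groups and so could not move the members' median by name (-0.62), and the count stayed at 1 gene. Same-numbered libraries deviated together with r across genes of 0.0462 to 0.458, below 0.1 for number 1. The fit by field in libraries with agreeing labels was not run, because name and field coincide there. Shrinkage of the deposited values limits what low genes can show: Gm20513 differed by -0.53 in limma and by -1.02 in the authors' deposited table.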
